A study of Drosophila melanogaster with 4 samples.

Results

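The proteasome subunit genes of the fly were followed here as every gene whose symbol starts with Prosalpha, Prosbeta, Rpn or Rpt and goes on with a number, which gave 48 of the 13929 genes in the deposited count table. The rule reads the symbol alone. Of the 48 genes, 25 encode the core particle (14 somatic subunits and 11 paralogs) and 23 the regulatory particle (18 somatic subunits and 5 paralogs), a paralog being a gene whose symbol carries a T or R suffix beside that of a somatic subunit.

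The proteasome degrades proteins that have been tagged with ubiquitin. Its core particle is a barrel of outer alpha rings, which gate the entrance, and inner beta rings, which hold the proteases. The regulatory particle caps the barrel, with a base of Rpt ATPases and Rpn scaffolds and receptors that unfolds the substrate and a lid that removes the ubiquitin. Photoreceptors turn over large amounts of rhodopsin and other proteins of the light-sensing membrane, and protein quality control is much studied in aging neurons. Many genes for somatic subunits in Drosophila have a duplicate copy that is known for expression in the male germ line.

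Nuclear RNA was sequenced from outer photoreceptors of male flies collected at Day 30, at zeitgeber time 6 hours of a light and dark cycle. Rh1-Gal4, active in the outer photoreceptors R1 to R6, drove an RNAi construct against Top3β, a topoisomerase of DNA and RNA (TRiP.JF01282, siTop3β), or an RNAi construct against mCherry, a fluorescent protein that flies lack (siControl). Both groups also carried UAS-Dcr-2, which strengthens RNAi, and GFP-KASH, which puts GFP on the nuclear envelope so that an antibody can capture the tagged nuclei. Each group had 2 libraries, made from pools of age-matched male flies. The comparison asks how the nuclear transcripts of photoreceptors depend on Top3β. In bulk libraries of this kind, fewer nuclei of a type and less RNA per nucleus cannot be told apart.

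Library totals lay between 3239201 and 4267208 counts. siTop3β replicate 1 had the smallest total and counts on 12922 genes, against 10104 in siTop3β replicate 2 and 10479 and 10537 in the siControl libraries. The RNAi target itself was not lower in the libraries labelled siTop3β. Top3β had 57 and 71 counts there and 70 and 57 in siControl, a log2 fold change of 0.13 (SE 0.25, adjusted p = 0.957 by edgeR's quasi-likelihood test), so every direction below rests on the library labels. All 12 markers of outer photoreceptors were expressed, at a summed level of 74163 and 82812 CPM (counts scaled to library size) in siTop3β and 82366 and 85383 CPM in siControl. Markers of glia summed to 150 to 174 CPM over the 4 libraries.

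The somatic subunit genes were expressed at moderate nuclear levels. Of the 32 somatic genes, 31 had counts in every library. Levels are given as CPM per kb of exon, averaged over the 4 libraries, since genes differ in length. They ran from 1.84 for Prosbeta3 to 12.9 for Rpn13, with a median of 5.36, and 8 genes lay under 4 while 5 lay over 10. Over all 7029 genes tested the median was 6.47, and the 30 somatic genes that were tested stood between percentiles 27.7 and 68.6 of these. In the order of levels, 29 of the 30 pairs of neighbouring genes had overlapping libraries, so the order of close neighbours cannot be read.

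**Figure D1:**
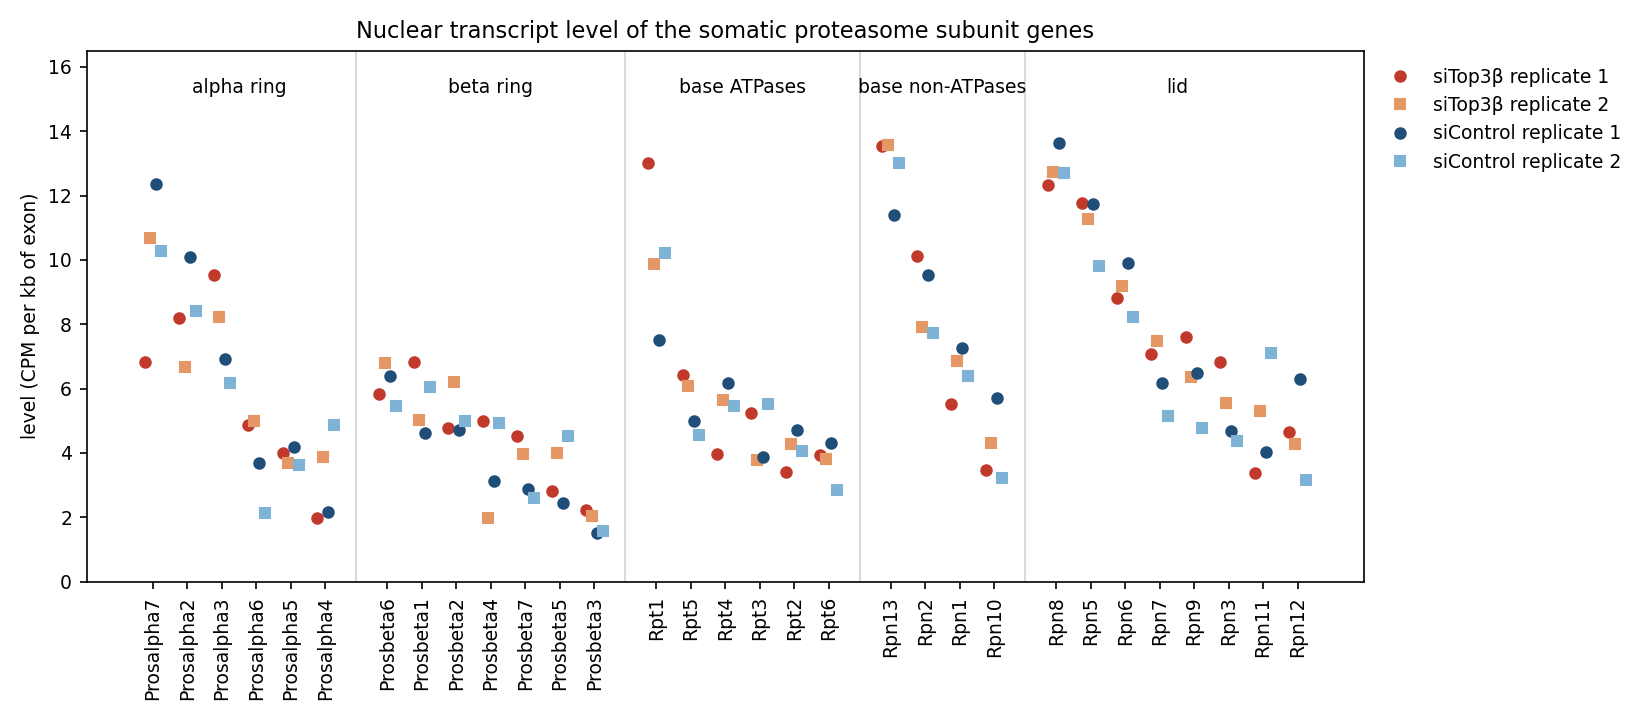
Level of each somatic proteasome subunit gene (vertical axis, CPM per kb of exon) in the 4 libraries (red and orange, siTop3β; dark and light blue, siControl), grouped by ring or subcomplex and ordered by mean level; Prosalpha1, at 0 in every library, is left out. The 5 genes over 10 CPM per kb on average are Prosalpha7, Rpt1, Rpn13, Rpn8 and Rpn5, and in most genes the points of the 2 groups mix.

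In the alpha ring the highest gene was Prosalpha7 (FBgn0023175), with 6.84 and 10.7 CPM per kb in siTop3β and 12.4 and 10.3 in siControl. The lowest with counts was Prosalpha4, with 1.97 and 3.86 in siTop3β and 2.17 and 4.87 in siControl. In both genes the libraries of the groups overlapped, although their levels were several-fold apart from each other. The beta ring ran from Prosbeta6, with 5.84 and 6.79 CPM per kb in siTop3β and 6.40 and 5.46 in siControl, down to Prosbeta3. Prosbeta3 (FBgn0026380) had only 7 and 7 counts in siTop3β and 6 and 5 in siControl, too few to pass the filter on low counts, and its exons overlap those of CG11980 on the opposite strand.

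Among the ATPases of the base, Rpt1 (FBgn0028687) was highest, at 13.03 and 9.87 CPM per kb in siTop3β and 7.51 and 10.2 in siControl. Rpt6 was lowest, at 3.93 and 3.80 in siTop3β and 4.30 and 2.85 in siControl. Rpt1 lies inside CG17985 on the same strand, outside its exons. CG17985 had 48 and 59 counts in siTop3β and 59 and 36 in siControl, and any share of its reads in the level of Rpt1 was not tested. The 6 ATPases sit side by side in a single ring, so these are transcripts of partners in 1 assembly whose nuclear levels differed by 2.73-fold. Among the other base subunits, the ubiquitin receptor Rpn13 was highest, at 13.5 and 13.6 CPM per kb in siTop3β and 11.4 and 13.01 in siControl. Rpn10, also a ubiquitin receptor, was lowest, at 3.47 and 4.32 in siTop3β and 5.72 and 3.22 in siControl.

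In the lid, Rpn8, the inactive partner of the deubiquitinase Rpn11, had 12.3 and 12.7 CPM per kb in siTop3β and 13.6 and 12.7 in siControl. Rpn12, a scaffold subunit of the lid, was lowest, with 4.67 and 4.29 in siTop3β and 6.30 and 3.16 in siControl. The 4 libraries of Rpn8 lay close together, whereas the siControl libraries of Rpn12 lay well apart. Rpn8 overlaps a gene with far more counts on the opposite strand, Slik (6219 and 7610 counts in siTop3β, 7194 and 6117 in siControl), without overlap of their exons. In all, 22 of the 48 genes overlap another gene and 15 share exonic bases with a gene on the opposite strand. Whether the counting used strand is not given in the sources used here, so reads of such pairs may be mixed.

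Core particle genes had lower levels than regulatory particle genes on the median. Among tested somatic genes, the core median was 4.93 and 5.002 CPM per kb in siTop3β and 4.41 and 4.95 in siControl. The regulatory median was 6.62 and 6.22 in siTop3β and 6.24 and 5.50 in siControl. The core stood at 0.745 and 0.805 of the regulatory median in siTop3β and at 0.706 and 0.900 in siControl, so the ratio overlapped between the groups. Per kb of coding sequence instead of exon the ratio was 0.821 and 0.835 in siTop3β and 0.726 and 1.00 in siControl, where the last library no longer shows the order.

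Summed over genes, the somatic core reached 65.9 and 67.8 CPM in siTop3β and 63.6 and 64.4 CPM in siControl, or 66.8 ± 1.37 against 64.0 ± 0.538 (SD, n = 2 each). The siTop3β sum was 104% of siControl. The somatic regulatory particle reached 236 and 229 CPM in siTop3β and 232 and 211 CPM in siControl, or 232 ± 5.43 against 221 ± 14.5 (SD, n = 2 each), and its siTop3β sum was 105% of siControl. The regulatory difference was smaller than the spread between the siControl libraries. No p-value was computed for these sums.

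No proteasome subunit gene passed the test between siTop3β and siControl. Of the 48 genes, 32 passed edgeR's filter on low counts, 30 somatic genes and the paralogs Prosalpha3T and Rpn13R. In edgeR's quasi-likelihood test with its adjusted p held under 0.05, 0 of the 32 were higher, against 0.384% of all 7029 genes tested, and 0 were lower, against 0.825%. At an unadjusted p under 0.05, 0 of the 32 were higher, where 3.66% of all genes tested were, and 0 were lower, where 5.43% were. DESeq2 had 0 at an unadjusted p under 0.05. It also called 0, but of the 46 members it fitted only 2 received an adjusted p and could have been called. Fitted log2 fold changes ran from -0.37 to 0.73, with 15 above 0 and 17 below, and their median was -0.02, beside 0.02 over all genes tested.

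Separation of the libraries was counted in each direction, and no p-value was computed for it. Both siTop3β libraries lay above both siControl libraries in 7 of the 32 genes (21.9%), beside 19.6% of all genes tested. The 7 genes were Prosalpha3, Prosalpha6, Prosbeta7, Rpt5, Rpn13, Rpn3 and Rpn7. The share of 21.9% was near that of all genes tested. siControl replicate 2 was the lowest library in each of the 7 except Rpn13. Both siTop3β libraries lay below both siControl libraries in 1 gene, Prosalpha2 (3.12%), beside 19.0% of all genes tested. Over the 32 genes, 15 fitted log2 fold changes were above 0 and 17 below.

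**Figure D2:**
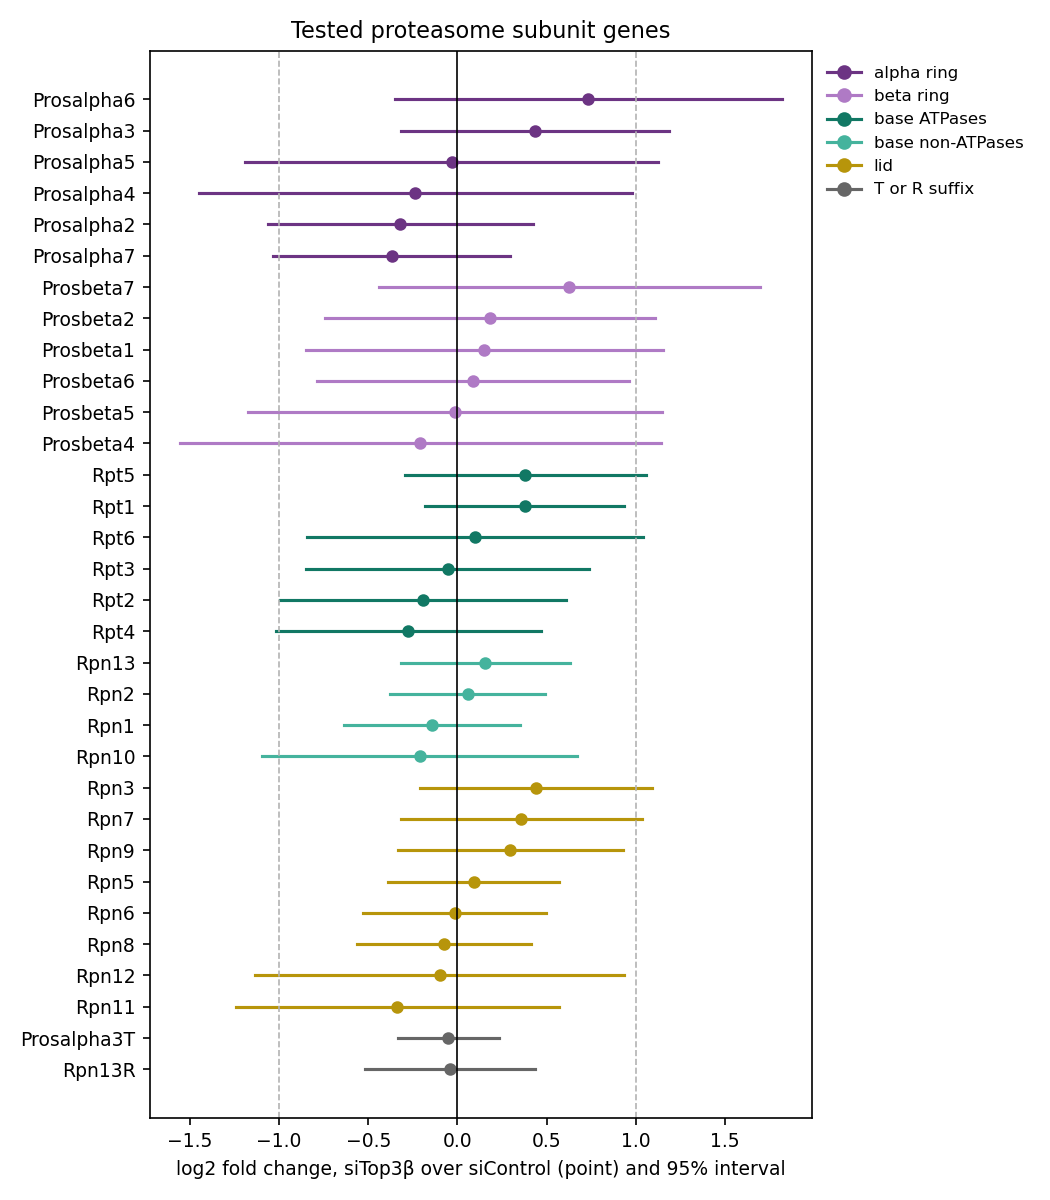
Log2 fold change of siTop3β over siControl (horizontal axis, points) with its 95% interval from edgeR (lines). Shown are the 32 proteasome subunit genes that passed the filter on low counts, coloured by ring or subcomplex, with the paralogs Prosalpha3T and Rpn13R in grey. Dashed lines mark a 2-fold change. Every interval crosses 0, and the intervals of regulatory particle genes are shorter. Of these, 11 of 19 lie inside the dashed lines, Rpn13R included, against 2 of 13 in the core, Prosalpha3T included.

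How firmly a change can be bounded differed between the particles. The standard errors had a median of 0.36 on the log2 scale and ran from 0.14 to 0.66, against a median of 0.28 over all genes tested. All 32 intervals held 0. They lay wholly within a 2-fold change in 11 of the 19 regulatory genes and in 2 of the 13 core genes, and within 1.5-fold in 5 regulatory genes and 1 core gene. Without the paralogs Rpn13R and Prosalpha3T, 10 of 18 regulatory genes and 1 of 12 core genes lay within 2-fold. Within 1.5-fold lay 4 of these regulatory genes and 0 of these core genes. The genes are short, with a median span of 1.39 kb against 3.54 kb over all genes tested, and had few reads, with a median of 28.5 counts per library against 52.8. For 11 of the 13 core genes a 2-fold change thus lay inside the interval at this depth.

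Among genes with a level below siControl, the smallest p belonged to Prosalpha7, a subunit of the outer ring. It had 23 and 39 counts in siTop3β and 52 and 35 in siControl, or 8.54 ± 2.64 against 11.05 ± 1.46 CPM (SD, n = 2 each). siTop3β replicate 1 was lowest and siControl replicate 1 highest, and the groups overlapped. The log2 fold change was -0.37 (SE 0.33, adjusted p = 0.831 by edgeR), an interval from 48.8% to 123% of siControl. It was -0.09 without siTop3β replicate 1, -0.77 without siTop3β replicate 2 and -0.25 without siControl replicate 1.

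Prosalpha2, of the same ring, had 26 and 23 counts in siTop3β and 40 and 27 in siControl. On the CPM scale it was the gene whose siTop3β libraries both lay lower, at 6.84 ± 0.993 against 8.51 ± 1.10 (SD, n = 2 each). Its log2 fold change of -0.32 did not pass (SE 0.36, adjusted p = 0.885 by edgeR), and it ran from -0.47 to -0.20 with a replicate left out. Rpn11, the metalloprotease of the lid that cuts ubiquitin chains off the substrate, had 14 and 24 counts in siTop3β and 21 and 30 in siControl. The groups overlapped, and the log2 fold change was -0.34 (SE 0.44, adjusted p = 0.913 by edgeR). It was 0.09 without siControl replicate 2 and -0.05 without siTop3β replicate 1, and it reached -0.73 without siControl replicate 1 and -0.74 without siTop3β replicate 2.

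Rpt4 (FBgn0028685) is an ATPase of the base that lies on chromosome X (6289470 to 6291245, minus strand), only 1.48 kb from the RNAi target Top3β on the same strand. It had 20 and 31 counts in siTop3β and 39 and 28 in siControl. siTop3β replicate 1 was the lowest, and siTop3β replicate 2 lay between the siControl libraries. Its level was 7.04 ± 1.75 CPM in siTop3β and 8.53 ± 0.738 CPM in siControl (SD, n = 2 each), with a log2 fold change of -0.28 (SE 0.36, adjusted p = 0.913 by edgeR). It was -0.05 without siTop3β replicate 1 and -0.60 without siTop3β replicate 2.

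Among genes with a level above siControl, Prosalpha6 had 18 and 20 counts in siTop3β and 17 and 8 in siControl, or 5.28 ± 0.0822 against 3.12 ± 1.17 CPM (SD, n = 2 each). The groups did not overlap, and siControl replicate 2 was the lowest library. Its log2 fold change of 0.73 was the largest among the 32 genes (SE 0.53, adjusted p = 0.765 by edgeR), with an interval from 78.4% to 353% of siControl. It was 1.17 without siControl replicate 1 and 0.40 without siControl replicate 2. Rpn3, a scaffold subunit of the lid, had 43 and 38 counts in siTop3β and 37 and 28 in siControl. Its libraries did not overlap on the CPM scale, and the log2 fold change was 0.44 (SE 0.32, adjusted p = 0.765 by edgeR), or 0.29 without siTop3β replicate 1.

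Rpt1 had 68 and 56 counts in siTop3β and 49 and 54 in siControl, with overlapping groups and a log2 fold change of 0.38 (SE 0.27, adjusted p = 0.766 by edgeR). It was 0.13 without siControl replicate 1, 0.58 without siControl replicate 2 and 0.17 without siTop3β replicate 1. Prosbeta7, a beta ring subunit without protease activity, had 19 and 18 counts in siTop3β and 15 and 11 in siControl. Its libraries did not overlap, and the log2 fold change was 0.63 (SE 0.52, adjusted p = 0.817 by edgeR). With fewer than 20 counts in each of the 4 libraries, the interval ran from 73.8% to 324% of siControl.

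The beta ring subunits that carry the protease activities had log2 fold changes between -0.01 and 0.18. Prosbeta1, with caspase-like activity, had 20 and 16 counts in siTop3β and 17 and 18 in siControl, a log2 fold change of 0.15. Prosbeta2, with trypsin-like activity, had 17 and 24 counts in siTop3β and 21 and 18 in siControl, a log2 fold change of 0.18. Prosbeta5, with chymotrypsin-like activity, had 11 and 17 counts in siTop3β and 12 and 18 in siControl, a log2 fold change of -0.01. In each of these genes the groups overlapped. The standard errors were 0.49 for Prosbeta1, 0.45 for Prosbeta2 and 0.57 for Prosbeta5. In the same order, the intervals from edgeR ran from 55.5% to 222%, 59.7% to 216% and 44.4% to 221% of siControl. Each interval held a 2-fold rise, so the small fold changes do not show that these levels were unchanged.

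Rpn2, a scaffold of the base, had the smallest standard error of the somatic genes. It had 119 and 101 counts in siTop3β and 140 and 92 in siControl. Its log2 fold change was 0.06 (SE 0.21), an interval from 76.8% to 141% of siControl. Rpn1, the other scaffold of the base, had 58 and 78 counts in siTop3β and 95 and 68 in siControl, a log2 fold change of -0.14. By subcomplex, the median log2 fold change of tested somatic genes was -0.13 in the alpha ring, 0.12 in the beta ring, 0.02 in the ATPases, -0.04 in the other base subunits and 0.04 in the lid.

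Prosalpha1 stood apart from all other somatic subunits with 0 counts in every library, and its duplicate Prosalpha1R was also at 0. Both lie on chromosome arm 2R on the same strand, with 1.73 kb between them. CG18853, on the opposite strand in this gap and sharing exonic bases with Prosalpha1R, was at 0 as well. The gene phr, whose exons overlap those of Prosalpha1 on the opposite strand, had 16 and 25 counts in siTop3β and 22 and 21 in siControl. Prosalpha1 and Prosalpha1R are duplicates of each other, and the values of both are uncertain. A count of 0 says only that no read was assigned, and its cause was not tested. How reads with several alignments were handled is not given in the sources used here.

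Of the 16 paralogs, 14 had few or no counts, while Prosalpha3T and Rpn13R had many reads assigned in all 4 libraries, which the germ line label of such copies does not describe. Prosalpha3T (FBgn0261395, chromosome 3R from 31122527 to 31123415, minus strand, 889 bases in 1 exon) had 1050 and 1052 counts in siTop3β and 1192 and 1153 in siControl. Its level was 343 and 316 CPM per kb in siTop3β and 311 and 371 in siControl, at percentile 99.1 of the genes tested. The groups overlapped, and the log2 fold change was -0.05 (SE 0.14, adjusted p = 0.974 by edgeR), which holds the siTop3β level between 79.4% and 118% of siControl.

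Its somatic counterpart Prosalpha3 had 32 and 30 counts in siTop3β and 29 and 21 in siControl. Per kb, Prosalpha3T stood 43.5-fold above Prosalpha3 over the 4 libraries and 26.0-fold above Rpn13, the highest somatic gene. This paralog took 47.1% and 46.5% of all counts on the 48 genes in siTop3β and 46.5% and 52.1% in siControl. The testis markers were not at such levels, and most of their counts fell on S-Lap1, twe and betaTub85D. S-Lap1 had 97 and 57 counts in siTop3β and 98 and 108 in siControl. The marker twe had 24 and 33 counts in siTop3β and 62 and 43 in siControl. Without S-Lap1, twe and betaTub85D, set aside for their counts, the markers together had 50 and 8 counts in siTop3β and 4 and 7 in siControl. The 15 testis markers summed to 51.9 and 28.3 CPM in siTop3β and 40.9 and 46.4 CPM in siControl, and 11 of the 15 were at 0 in at least 1 library, against 293 ± 16.9 CPM in siTop3β and 303 ± 37.6 CPM in siControl for Prosalpha3T alone (SD, n = 2 each).

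High levels were also seen in genes around Prosalpha3T on the same strand, and no annotated gene of the table overlaps it. Ktch, 4.55 kb away toward higher coordinates, had 3277 and 3408 counts in siTop3β and 3938 and 3891 in siControl, or 360 and 344 CPM per kb in siTop3β and 346 and 421 in siControl. Mayo, 13.34 kb away toward lower coordinates, had 1914 and 1913 counts in siTop3β and 2219 and 2249 in siControl. Per kb Mayo stood below Prosalpha3T, at 201 and 185 CPM in siTop3β and 186 and 233 in siControl. CG15553 and CG11317 beyond Mayo had between 1813 and 2407 counts in each library. Per kb CG15553 stood at 319 and 328 CPM in siTop3β and 306 and 386 in siControl. CG11317 stood at 292 and 285 CPM per kb in siTop3β and 271 and 328 in siControl. CG15554, which lies between Prosalpha3T and Ktch on the opposite strand, had only 45 and 33 counts in siTop3β and 13 and 15 in siControl. The part of these neighbours in the counts of Prosalpha3T was not tested.

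**Figure D3:**
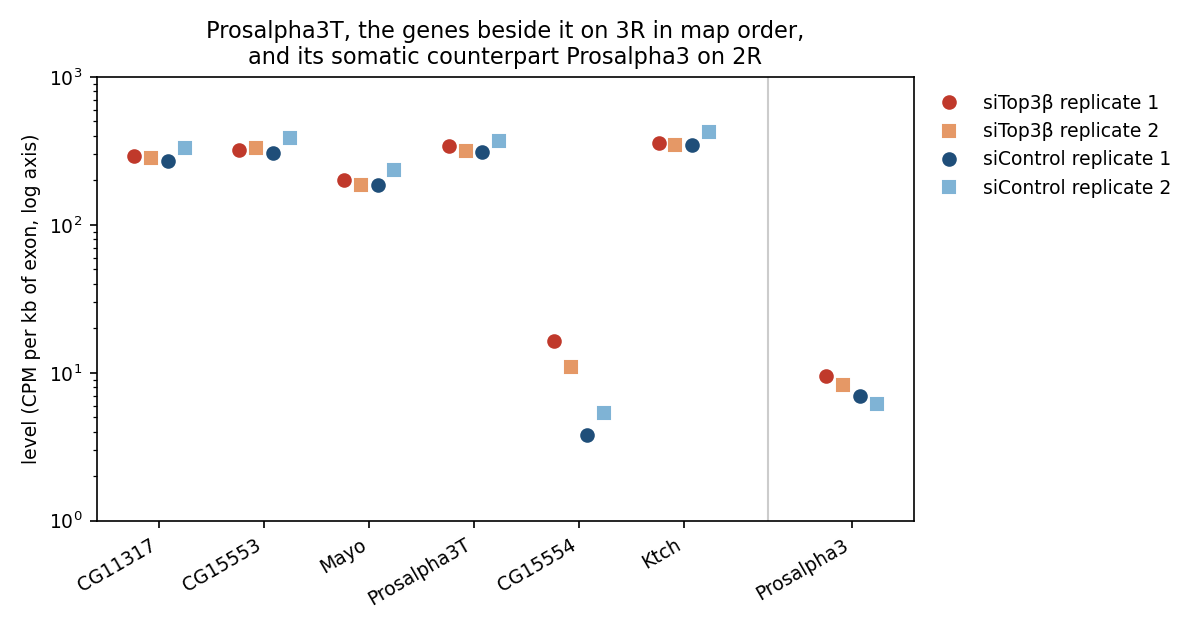
Level (vertical axis, CPM per kb of exon, log axis) of Prosalpha3T, of the genes beside it on 3R in map order, and, right of the line, of its somatic counterpart Prosalpha3, in the 4 libraries (red and orange, siTop3β; dark and light blue, siControl). Prosalpha3T lies near Ktch, at 311 to 371 against 344 to 421 CPM per kb, and far above CG15554 and Prosalpha3.

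Rpn13R (FBgn0029745, chromosome X from 5131898 to 5132985), the paralog of the ubiquitin receptor Rpn13, had 69 and 86 counts in siTop3β and 87 and 85 in siControl. Per kb it stood at 18.4 and 21.1 CPM in siTop3β and 18.6 and 22.4 in siControl, 1.57-fold above Rpn13. The groups overlapped, and the log2 fold change was -0.04 (SE 0.23, adjusted p = 0.987 by edgeR). Rpn13R lies inside the long gene rg on the same strand, outside its exons. rg had 203 and 282 counts in siTop3β and 369 and 302 in siControl, and whether intronic reads were counted is not given in the sources used here.

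The other 14 paralogs summed to 70 and 12 counts in siTop3β and 12 and 14 in siControl. Their higher sum rests on siTop3β replicate 1, in which 13 of the 14 had a count and 9 had 3 or more, against 6 with a count in siTop3β replicate 2 and 5 and 6 in siControl. That library stood apart for low genes in general. Of the 6900 genes that were not tested, 85.4% had a count in it, against 44.7% in siTop3β replicate 2 and 50% and 50.9% in siControl. All 15 testis markers had a count in it, against 6 in siTop3β replicate 2 and 7 and 7 in siControl. The 6 fat body markers did not move alike. The yolk protein genes Yp1 and Yp2 had 48 and 28 counts in siTop3β replicate 1 and at most 2 in any other library. Fbp1 and Fbp2 had 6 and 3 counts there and at most 1 elsewhere. Lsp2 had 21 and 17 counts in siTop3β and 15 and 27 in siControl. The most abundant of the list, apolpp, was lowest in siTop3β replicate 1, with 1897 and 2379 counts in siTop3β and 3809 and 3231 in siControl. The paralogs thus moved with other genes of low count there, and the part of this library's composition was not tested.

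Rpt3R, a paralog of an ATPase, had 14 and 2 counts in siTop3β and 5 and 0 in siControl, the most of the 14, and its exons overlap those of Alg12 on the opposite strand (234 and 382 counts in siTop3β, 290 and 266 in siControl). Rpt4R had 8 and 0 counts in siTop3β and 0 and 0 in siControl. Rpt6R had 8 and 3 counts in siTop3β and 3 and 5 in siControl, the only one of the ATPase paralogs with a read in every library. The alpha ring paralog Prosalpha4T1 had 8 and 3 counts in siTop3β and 0 and 2 in siControl, and lies inside CG42322 on the opposite strand. Prosalpha4T2 had 4 and 0 in siTop3β and 1 and 0 in siControl.

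Of the beta ring paralogs, Prosbeta5R1 had 7 and 2 counts in siTop3β and 0 and 1 in siControl. Prosbeta5R2 had 4 and 0 counts in siTop3β and 0 and 0 in siControl. Both copy a protease subunit, and outside siTop3β replicate 1 neither had more than 2 counts in a library. Prosbeta4R2 had 6 and 1 counts in siTop3β and 0 and 0 in siControl. Prosbeta2R2 had 5 and 0 counts in siTop3β and 1 and 0 in siControl. Prosalpha6T, Prosbeta2R1 and Prosbeta4R1 had at most 2 counts in any library, and Rpn12R had 1 and 1 counts in siTop3β and 0 and 4 in siControl.

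**Figure D4:**
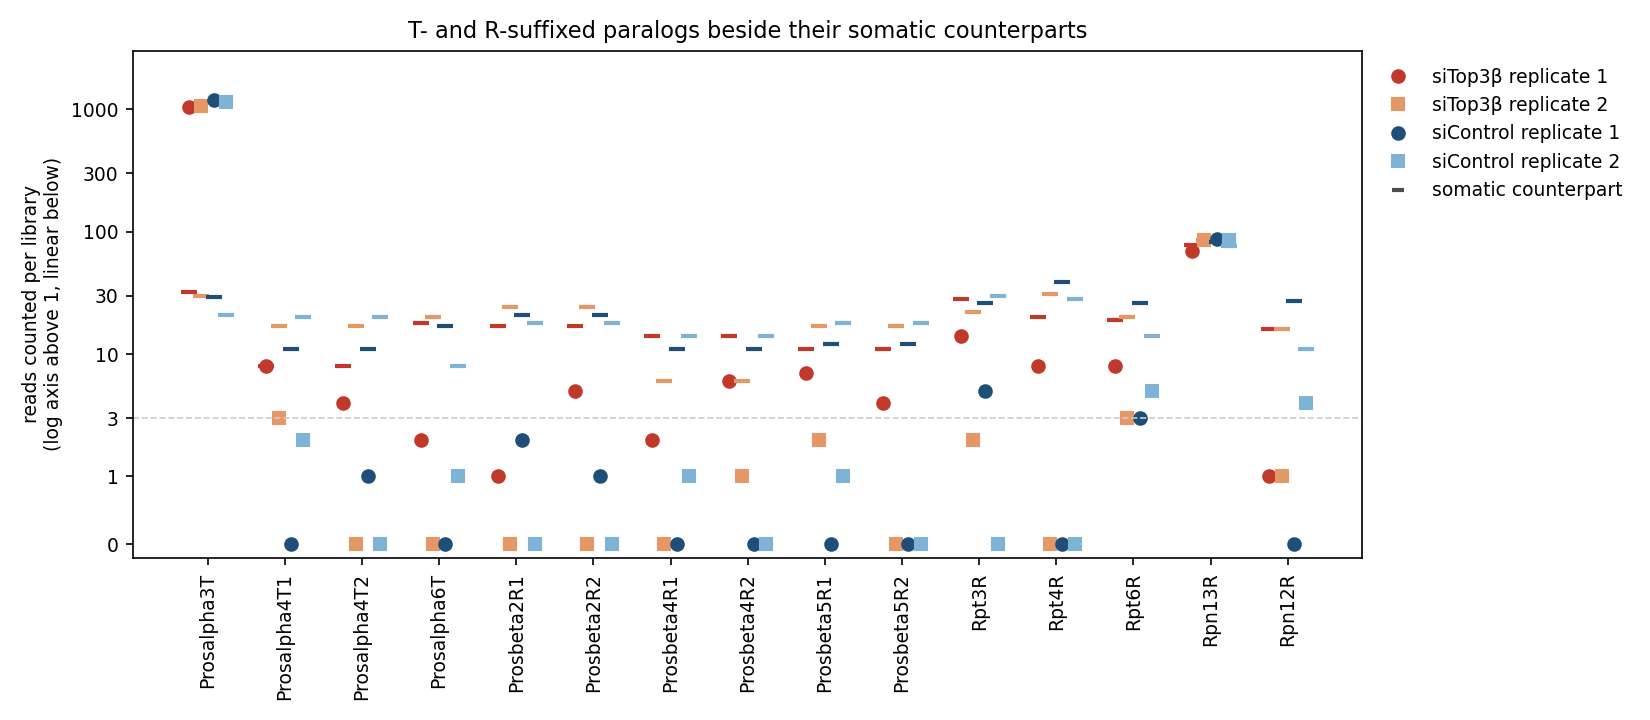
Reads counted per library (vertical axis, log axis above 1 and linear below) for 15 paralogs with a T or R suffix (points; red and orange, siTop3β; dark and light blue, siControl) and for the somatic counterpart of each (dashes in the same colours); Prosalpha1R, at 0 throughout, is left out. Prosalpha3T lies near 1000 counts and Rpn13R level with Rpn13, while the other 13 mostly lie at or under 3 counts outside siTop3β replicate 1.

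Prosalpha3T and Rpn13R were set aside for their many counts, and per kb both lay above their counterparts. The direction among the other paralogs was partly set by that choice. Pooled over the libraries, the 13 other paralogs whose counterpart had reads lay below that counterpart. The exception within a library was Prosalpha4T1 in siTop3β replicate 1, at 2.61 CPM per kb against 1.97 for Prosalpha4. Over the 4 libraries the counterpart stood from 3.26-fold above Prosalpha4T1 to 27.8-fold above Prosbeta2R1 per kb, and the 95% interval from counting alone lay above 1 in 13 of 13. Without siTop3β replicate 1 the lowest ratio was 5.61, for Rpt6R (interval 2.92 to 11.8), and 13 of 13 intervals again lay above 1. In those 3 libraries Rpt4R and Prosbeta5R2 were at 0, and the lower 95% limit was 26.7 for Rpt4 over Rpt4R and 16.49 for Prosbeta5 over Prosbeta5R2. These intervals cover counting error only.

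The genes are spread over the genome, with 14 on 3R, 13 on 2R, 8 on 2L, 7 on 3L and 6 on X. Only 5 pairs of neighbouring members lay within 50 kb of each other. The closest were the tandem copies Prosbeta4R1 and Prosbeta4R2, 1.47 kb apart, and Prosalpha1 and Prosalpha1R. The pairs of somatic genes were Rpn9 with Rpt5, 19.4 kb apart, and Rpn12 with Prosbeta6, 25.4 kb apart.

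Genes that work with the proteasome were read from a list of 22 chaperones, shuttles, deubiquitinases, ubiquitin genes and regulators. Of these, 21 were tested, and edgeR's test called 0 of them in either direction after adjustment. At an unadjusted p under 0.05, 0 of the 21 were higher and 2 were lower, where 3.66% and 5.43% of all genes tested were. Log2 fold changes were above 0 in 11 and below 0 in 10, with a median of 0.06. The 2 genes with an unadjusted p under 0.05 were cnc and Ubqn.

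The gene cnc encodes the transcription factor that raises proteasome gene expression when proteasome activity is short. It had 728 and 752 counts in siTop3β and 1065 and 999 in siControl, or 206 ± 7.42 against 267 ± 27.3 CPM (SD, n = 2 each). Both siTop3β libraries were below both siControl libraries. The log2 fold change of -0.37 did not pass after adjustment (SE 0.14, adjusted p = 0.278 by edgeR), and over the alternatives its adjusted p ran from 0.136 to 0.998.

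Ubqn, ubiquilin, shuttles ubiquitin-tagged proteins to the proteasome. It had 200 and 254 counts in siTop3β and 343 and 315 in siControl, or 62.9 ± 6.91 against 84.9 ± 7.42 CPM (SD, n = 2 each), again without overlap. Its log2 fold change was -0.43 (SE 0.16, adjusted p = 0.276 by edgeR), and over the alternatives its adjusted p ran from 0.0539 to 0.998. Pomp, the chaperone of core particle assembly, had 21 and 15 counts in siTop3β and 20 and 9 in siControl, with overlapping groups and a log2 fold change of 0.46 (SE 0.53, adjusted p = 0.888 by edgeR). It was 0.93 without siControl replicate 1, 0.09 without siControl replicate 2, 0.13 without siTop3β replicate 1 and 0.69 without siTop3β replicate 2.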

How the data were processed

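Per the labels and methods, the authors isolated tagged nuclei, made rRNA-depleted libraries, trimmed (Trimmomatic) and aligned (STAR, dm6 genome) the reads, and deposited unnormalized counts for each gene. The counting tool, its annotation, and its treatment of strand, introns and multiple alignments are not given in the sources used here. The methods describe more replicates for high-throughput experiments in general than the 2 libraries per group here. Replicates differed by more than sampling noise and were kept apart.

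Counts were fitted with edgeR 4.0.16 in R 4.3.3 (TMM, filterByExpr, robust quasi-likelihood test, two-sided, no block), with Benjamini-Hochberg adjustment over 7029 genes. DESeq2 1.42.0, other scalings and filters, a replicate block and left-out replicates were alternatives. Standard errors come from the test statistic. Lengths come from Ensembl release 115 (13866 of 13929 identifiers matched). Figures and ratios used Python 3.11. The fit was also run on simulated counts with a shared dispersion for all genes, which does not measure how it behaves on these low-count members.

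The members and lists were chosen with earlier results of these data known. Named with every library are the 4 members of smallest p in each direction, the highest and lowest of each subcomplex, paralogs with 3 or more counts and their counterparts, and, of the partners, the 2 of smallest p (Ubqn and cnc) and Pomp. The protease subunits, Rpn1, Rpn2 and the neighbours of members were chosen after their values were seen. Among other marker lists, fat body summed to 581 and 640 CPM in siTop3β and 888 and 933 in siControl (apolpp called lower, log2 fold change -0.61, adjusted p = 0.023 by edgeR, the only marker called, and not called without either siControl replicate, with no filter or in a fit that was not robust), other neurons to 142 and 121 against 162 and 155, muscle to 32.8 and 49.4 against 24.1 and 52.7, and hemocytes to 51.4 and 27.8 against 32.3 and 42.1.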

Additional observations from a re-analysis of the deposited data

How the results depend on the processing

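Under every alternative run, 0 members and 0 partners passed an adjusted p under 0.05, and 0 members passed at 0.1. With a replicate block 0 members were called and the median log2 fold change of tested members was -0.01. Libraries of the same number correlated at -0.12 in their deviations, and the crossed replicate block, chosen after seeing the data, also called 0 members. The lowest adjusted p of any member was 0.115, for Rpt3R without siTop3β replicate 2, the only setting in which a member had an unadjusted p under 0.05. In DESeq2 only 2 members had an adjusted p. The median log2 fold change of tested members was 0.081 with no filter and 0.067 in DESeq2, and it ran from -0.014 to 0.102 with a replicate left out. For the core it was 0.39 with no filter and 0.38 in DESeq2, where low-count paralogs enter, and -0.064 to 0.202 with a replicate left out. For the regulatory particle it was 0.013 to 0.164 with a replicate left out. Reversed signs were seen in Rpn11, which ran from -0.743 to 0.091 with a replicate left out, in Prosalpha3T (1.3e-05 with upper quartile normalization, -0.200 to 0.062 with a replicate left out) and in Rpn13R (0.0040 with upper quartile normalization, -0.202 to 0.073 with a replicate left out). Beyond the construction of each alternative, the cause was not tested. Of the 167 alternative values for named genes, 161 kept their sign and did not newly pass the threshold. A missing adjusted p, as for most named genes in DESeq2, was counted as not passing. The median level of somatic genes per kb was 5.36 by exonic length and 6.62 by coding length. Paralogs with no library above 3 counts numbered 4 of 16, and 4 to 11 with a replicate left out, the 11 without siTop3β replicate 1. Depth limits the core most, with at most 52 counts in any library for a somatic core gene.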
